A study of Sus scrofa with 16 samples.

Results

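miR-143 and miR-145 are a pair of microRNAs processed from 1 cluster and best known from smooth muscle and other mesenchymal cells. Their 4 mature arms were followed here in the small RNA of the sow endometrium, the lining of the uterus, on day 10 of pregnancy. A read was counted as a member if it was 20 to 26 nt long and its first 20 nt equalled the start of an arm. For miR-143, starts shifted by 1 nt were counted too. The 4 arms took 5132625 of the 92411446 deposited reads of 18 to 26 nt, which is 5.55% of them. Beside them, 11121 read groups in all were tested, each made of reads that share their first 18 nt, with the 4 arms among these groups. All 4 arms passed the filter on low counts.

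The sows had received oestradiol-17β (E2), the main ovarian oestrogen, in their feed from insemination on. The groups were 4 sows on the ethanol carrier (control, sows 1 to 4), 3 sows at 0.05 µg per kg body weight per day (sows 5 to 7), 4 sows at 10 (sows 8 to 11) and 4 sows at 1000 (sows 12 to 15). All sows were adult and pregnant, and RNA was taken from frozen endometrial tissue after the uterus had been flushed. Tissue of sow 7 was extracted on 2 occasions, and its libraries were summed into 1 replicate. The purpose of the comparison, per the series' title and design, is the miRNA content of the endometrium under each E2 dose.

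The cluster is read as 1 primary transcript from which 2 hairpins are cut. In RefSeq's pig annotation (Sscrofa11.1) MIR143 and MIR145 are on the same chromosome and adjacent among the miRNA genes. In mouse, serum response factor and myocardin drive the cluster in vascular smooth muscle, and Krüppel-like factors are among its known targets. Each hairpin yields a 5p and a 3p arm. The dominant arm is loaded into Argonaute, where its seed, bases 2 to 8, selects target mRNAs, and the other arm is mostly degraded. In the uterus the cluster is known from the myometrium and the stroma. Fewer cells of a type and less RNA per cell cannot be told apart in such bulk tissue.

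The most abundant read of each arm is shown because the counts, the end variants and the joined reads described further on all refer to it. The seed is in capitals, and the letters are those of the deposited reads, with T for U.
miR-143-3p: tGAGATGAagcactgtagctct
miR-143-5p: gGTGCAGTgctgcatctctgg
miR-145-5p: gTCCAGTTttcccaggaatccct
miR-145-3p: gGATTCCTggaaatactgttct
No 2 arms share a seed. Of all 20 to 26 nt reads that carry the seed at bases 2 to 8, the 20-nt start shown held 94.8% for miR-143-3p, 96.4% for miR-143-5p, 97.7% for miR-145-5p and 95.7% for miR-145-3p. Folded as duplexes, miR-143-5p with miR-143-3p formed 16 base pairs at -26.1 kcal/mol, and miR-145-5p with miR-145-3p formed 17 at -23.2 kcal/mol. The crossed pairings were weaker, with 13 pairs at -7.1 kcal/mol for miR-143-5p with miR-145-3p and 8 pairs at -5.5 kcal/mol for miR-145-5p with miR-143-3p.

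The depth behind these values was 2736396 to 11797501 reads of 18 to 26 nt per sow, which made up 46.7 to 78.4% of each sow's deposited reads. Reads carry no molecular identifiers, so an interval on a single library covers counting error only. The libraries fell into 3 length classes, which the labels do not name and which were defined here from read lengths. Reads of 17 to 19 nt were below 8% of the library in the 6 sows of class A and above it in the other 9. Long reads, of at least 40 nt, were below 5% in the 6 sows of class B and above 5% in the 3 sows of class C. Sow 7 was just below this cut, at 4.75% from its 2 libraries summed. The next highest sow of class B, sow 4, had 2.83%, and the lowest of class C, sow 13, had 9.41%. Class A holds sows 1, 2, 5, 8, 9 and 12, class B holds sows 3, 4, 7, 10, 11 and 15, and class C holds sows 6, 13 and 14. Classes were not balanced over the doses: control and the 10 µg group have 2 sows each in A and in B and none in C, the 0.05 µg group has 1 sow in each class, and the 1000 µg group has 1 in A, 1 in B and 2 in C. Sow 13, in class C at 1000 µg/kg/day, had the fewest reads and stood apart in several values, so results that rest on it are given with and without it. Markers of the tissue were present: reads with the miR-200b, miR-200c and miR-429 seed, typical of epithelium, averaged 15318 per 1000000 reads in control.

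miR-143-3p was one of the main small RNAs of this tissue and passed no test of a dose against control. It ranked 2 of 11121 groups by mean level. In control it had 66980.1, 63927, 45031 and 42525 RPM, that is reads per 1000000 reads of 18 to 26 nt, in sows 1 to 4. At 0.05 µg/kg/day it had 47286, 61427 and 50098 in sows 5 to 7. At 10 µg/kg/day it had 57988, 57936, 59377 and 38184 in sows 8 to 11, and at 1000 µg/kg/day 40906, 117919, 54766 and 38118 in sows 12 to 15. The values of every dose overlapped with those of control, and sow 13 alone was above all other sows. Control sows averaged 54616 ± 12618 RPM (SD, n = 4). The treated groups averaged 52937 ± 7486 at the dose of 0.05 (n = 3), 53371 ± 10147 at 10 (n = 4) and 62927 ± 37377 RPM at 1000 µg/kg/day (n = 4). The large mean at 1000 µg/kg/day came with sow 13 in the group; without it the mean was 44596 ± 8916 (SD, n = 3).

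miR-145-5p, the dominant arm of the other hairpin, was much scarcer, at rank 48 of 11121, and its levels overlapped between all groups. In control it had 4166, 3862, 2361 and 2122 RPM in sows 1 to 4, and at 0.05 µg/kg/day 3849, 3385 and 2861 in sows 5 to 7. At 10 µg/kg/day it had 4041, 3411, 3148 and 2115 in sows 8 to 11, and at 1000 µg/kg/day 2779, 3669, 3081 and 1976 in sows 12 to 15. Sow 13 was inside the range of the others for this arm. The highest sow had 2.11 times the level of the lowest for miR-145-5p, against 3.09 times for miR-143-3p.

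**Figure D1:**
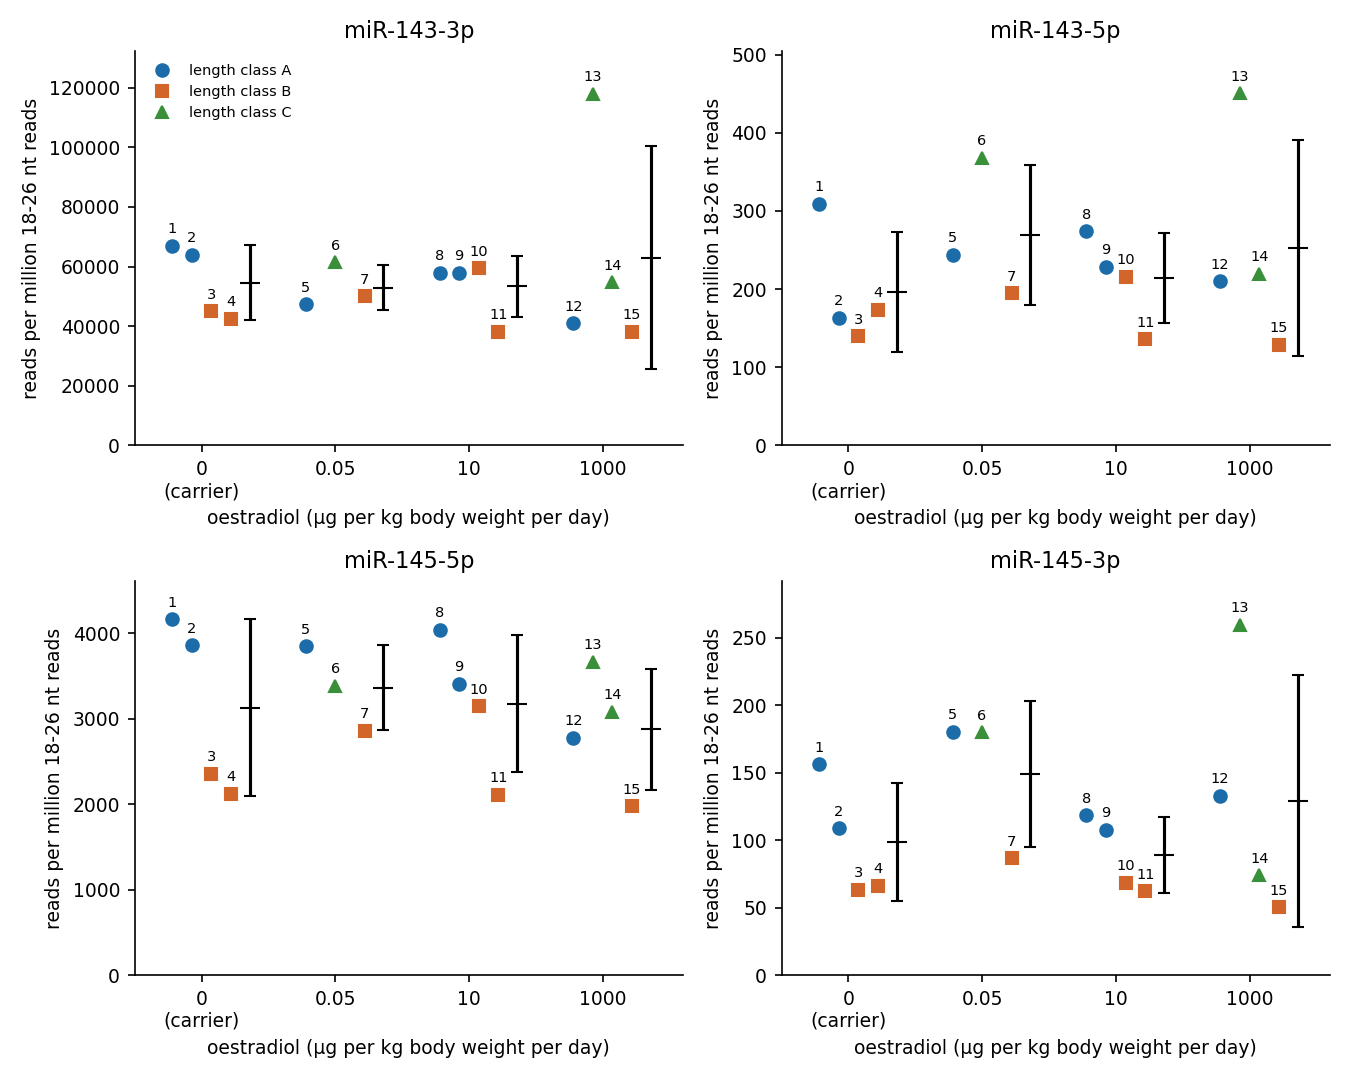
RPM (reads per 1000000 reads of 18 to 26 nt) of each arm (vertical axes from 0) by E2 dose; each point is 1 sow with its number, colour and shape give the length class, and black bars are the group mean ± SD. All groups overlap in every panel, and sow 13 is highest for miR-143-3p at 117919 RPM and for miR-143-5p and miR-145-3p, but not for miR-145-5p.

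The minor arms were far scarcer. miR-143-5p had 309, 163, 139 and 174 RPM in control sows 1 to 4 and 244, 368 and 194 in sows 5 to 7 at 0.05 µg/kg/day. It had 274, 229, 216 and 136 in sows 8 to 11 at 10 and 210, 451, 220 and 129 in sows 12 to 15 at 1000 µg/kg/day. Every dose group overlapped with control. miR-145-3p had 156, 109, 63.3 and 66.2 RPM in sows 1 to 4 and 181, 180.1 and 86.7 in sows 5 to 7. It had 119, 108, 68.7 and 62.1 in sows 8 to 11 and 133, 259, 74.1 and 50.4 in sows 12 to 15. The 0.05 µg group held 2 of the 3 highest values of this arm, but its remaining sow was inside the control range. Read numbers set the precision: sows gave 159226 to 695347 reads of miR-143-3p and 10039 to 36865 of miR-145-5p, but 696 to 2527 of miR-143-5p and 257 to 1023 of miR-145-3p.

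No arm passed the test at any dose (edgeR's quasi-likelihood test over all 15 sows, Benjamini-Hochberg adjustment over 11121 groups, threshold 0.05). At 1000 µg/kg/day the log2 difference from control was 0.20 for miR-143-3p (95% confidence interval -0.40 to 0.81), 0.36 for miR-143-5p (-0.35 to 1.07), -0.12 for miR-145-5p (-0.64 to 0.40) and 0.39 for miR-145-3p (-0.52 to 1.29). The edgeR adjusted p was 0.99979 for each of these, and 0 of 4 arms were called where the share called among all groups was 0%. Without sow 13 the differences were -0.29 for miR-143-3p, -0.08 for miR-143-5p, -0.26 for miR-145-5p and -0.20 for miR-145-3p, so that 3 of the 4 changed sign. With length class as a covariate they were -0.28 for miR-143-3p, -0.17 for miR-143-5p, -0.26 for miR-145-5p and -0.07 for miR-145-3p.

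At 10 µg/kg/day the log2 differences were -0.03 for miR-143-3p (-0.64 to 0.57), 0.12 for miR-143-5p (-0.59 to 0.83), 0.02 for miR-145-5p (-0.50 to 0.54) and -0.14 for miR-145-3p (-1.05 to 0.76), with an edgeR adjusted p of 0.99988 for each. The value for miR-143-3p turned to 0.07 with TMM factors and to 0.11 when scaled by all deposited reads. At 0.05 µg/kg/day they were -0.05 (-0.70 to 0.61) for miR-143-3p and 0.11 (-0.45 to 0.67) for miR-145-5p. The minor arms were at 0.45 (-0.31 to 1.22) for miR-143-5p and 0.59 (-0.38 to 1.56) for miR-145-3p, and the edgeR adjusted p was 1 for all 4 arms. With length class as a covariate the values at 0.05 µg/kg/day were -0.28 for miR-143-3p, 0.13 for miR-143-5p, 0.05 for miR-145-5p and 0.34 for miR-145-3p. miR-143-5p was at 0.16 without sow 6 and at 0.76 without control sow 1, and miR-145-3p at 0.91 without control sow 1. Again 0 of 4 arms were called at each of these doses, beside 0% of all groups at 10 and 0% at 0.05 µg/kg/day. The 3 comparisons share the 4 control sows. The intervals of both dominant arms lie within a doubling and a halving at each dose, while those of the minor arms reach beyond a doubling at 0.05 and 1000 µg/kg/day, and that of miR-145-3p reaches beyond a halving at 10 µg/kg/day.

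Tested jointly, the 3 doses gave an edgeR adjusted p of 0.99992 for each arm, and the slope over dose rank 0.99988, with 0% of all groups called in both. Slopes per rank were 0.06 for miR-143-3p (-0.12 to 0.24), 0.08 for miR-143-5p, -0.04 for miR-145-5p and 0.05 for miR-145-3p. Among all 11121 groups edgeR had an unadjusted p under 0.05 for 222 at 0.05, 318 at 10 and 412 at 1000 µg/kg/day, 249 over the doses together and 389 over dose rank. DESeq2 called 0 in all 5 comparisons, with 246, 323, 455, 349 and 411 under an unadjusted 0.05 in the same order. None of the 4 arms was among the edgeR groups with an unadjusted p under 0.05 at a dose: the smallest unadjusted edgeR p of an arm was 0.215, for miR-145-3p at 0.05 µg/kg/day.

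**Figure D2:**
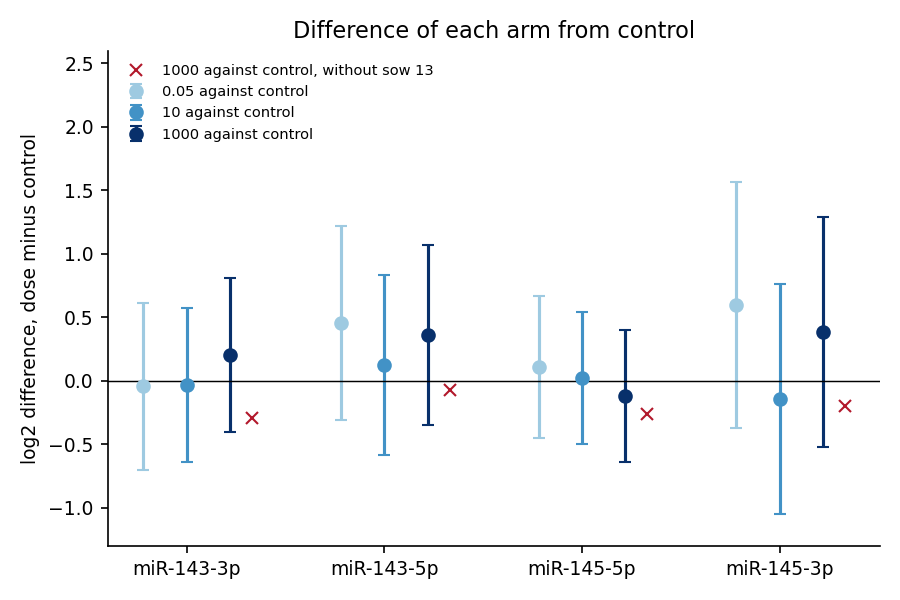
Log2 difference of each arm, dose minus control, from edgeR; points are estimates at 0.05, 10 and 1000 µg/kg/day, bars 95% confidence intervals, and crosses the 1000 µg/kg/day estimate without sow 13. Every interval includes 0, and the crosses lie below 0 for all 4 arms, from -0.29 for miR-143-3p to -0.08 for miR-143-5p.

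Within a length class the dose comparison rests on 1 or 2 sows a side and has no test. In class A, miR-143-3p differed from control by -0.47 at 0.05, -0.17 at 10 and -0.68 at 1000 µg/kg/day on the log2 scale, and in class B by 0.20, 0.12 and -0.20 in the same order. For miR-145-5p the differences were -0.06, -0.11 and -0.53 in class A and 0.35, 0.21 and -0.18 in class B. At 1000 µg/kg/day both dominant arms were thus below control in both classes, each from 1 treated sow against 2 control sows. Class C holds no control sow.

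The ratio of the cluster partners asks whether the 2 dominant arms, which start from 1 transcript, keep the same proportion. It was taken as reads of miR-143-3p per read of miR-145-5p. Since ligation captures each small RNA with its own efficiency, it is a ratio of reads and not of molecules. In control the ratio was 16.1, 16.6, 19.1 and 20.04 in sows 1 to 4, and at 0.05 µg/kg/day 12.3, 18.1 and 17.5 in sows 5 to 7. At 10 µg/kg/day it was 14.3, 17, 18.9 and 18.1 in sows 8 to 11, and at 1000 µg/kg/day 14.7, 32.1, 17.8 and 19.3 in sows 12 to 15. Apart from sow 13 the ratio stayed between 12.3 and 20.04, and every dose group overlapped with control.

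The mean ratio of control sows was 17.9 ± 1.92 (SD, n = 4). It was 16 ± 3.22 in the 0.05 µg group (n = 3), 17.1 ± 1.97 in the 10 µg group and 21 ± 7.68 in the 1000 µg group (n = 4 each). The log2 ratio minus control was -0.18 at 0.05 (two-sided exact permutation p = 0.457), -0.07 at 10 (exact p = 0.543) and 0.17 at 1000 µg/kg/day (exact p = 0.686). Each had an adjusted p of 0.887 over the 30 permutation tests made on ratios and end variants. With 4 against 4 sows the smallest possible p is 0.0286 and with 3 against 4 it is 0.0571, so the 0.05 µg group could not pass 0.05 even before adjustment. A single comparison at the smallest possible p could not pass after adjustment over the 30 tests either, at any dose. Without sow 13 the mean at 1000 µg/kg/day was 17.3 ± 2.33 (SD, n = 3) and the log2 difference -0.06. Without sow 5, which had the lowest ratio, the log2 difference at 0.05 µg/kg/day was -0.0026 (exact p = 1).

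The ratio went with the length class of the library. It ran from 12.3 to 17 in the 6 sows of class A and from 17.5 to 20.04 in the 6 sows of class B. These ranges did not overlap with the extractions of sow 7 summed. That sow had the lowest ratio of class B and was the class B sow closest to the cut on long reads. By its first extraction alone that sow had a ratio of 16.9, inside the class A range, and by its second 17.9. In class C the ratio ran from 17.8 to 32.1 in 3 sows. Means were 15.2 ± 1.74 in A, 18.8 ± 0.901 in B and 22.7 ± 8.19 in C (SD). In the same sows miR-145-5p averaged 3685 ± 512 RPM in A and 2430.4 ± 470.3 in B, and miR-143-3p 55837 ± 9947 in A and 45556 ± 8134 in B (SD, n = 6 each). The part of the length profile in the ratio was not tested. Within a class the ratio differed from control by -0.41 to -0.06 on the log2 scale in A and by -0.16 to -0.02 in B over the 3 doses.

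**Figure D3:**
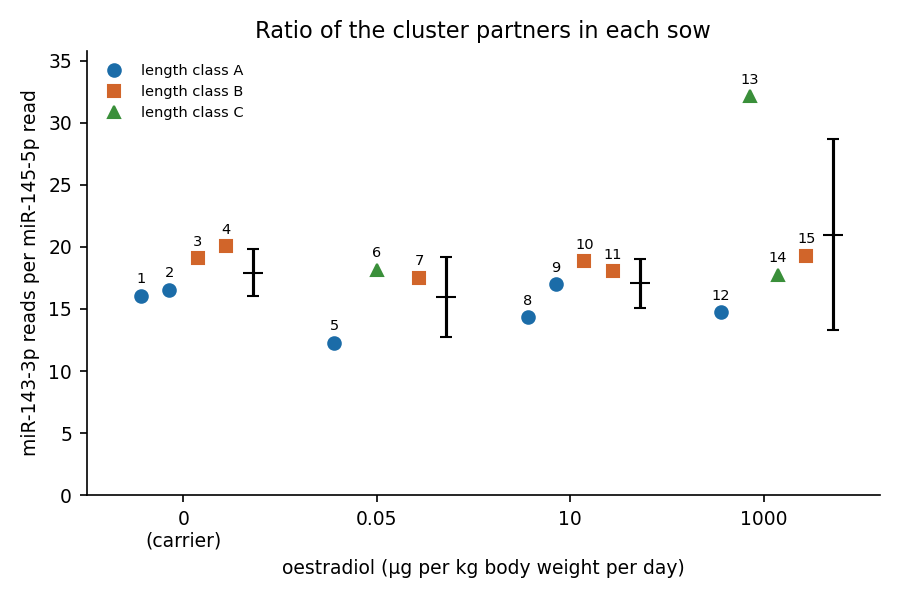
Reads of miR-143-3p per read of miR-145-5p in each sow (vertical axis from 0) by E2 dose; points are sows with their number, colour and shape give the length class, and black bars are the mean ± SD. Class A sows lie at 12.3 to 17, class B sows at 17.5 to 20.04 in every dose group, and sow 13 is alone at 32.1.

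Sow 13 differed from the other 14 sows in more than the ratio. Its miR-143-3p was 117919 RPM with a Wilson 95% interval of 117537 to 118301, against 51754 ± 9840 in the other 14 sows (SD). There miR-143-3p ranked 1 of all groups. miR-145-5p was 3669 RPM (Wilson 95% interval 3598 to 3741), against 3083 ± 746 in the other sows. So the dominant arm of miR-143 was outside the range of the other sows and that of miR-145 was inside it. The minor arm of miR-145 went with miR-143: miR-145-3p was 259 RPM (Wilson 95% interval 241 to 279), above the highest other value of 181.

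Other markers stood apart in the same sow. Reads with the seed of miR-1 and miR-206, miRNAs of striated muscle, reached 1282 RPM there, the highest of all sows. They are most of the skeletal and cardiac muscle list of 4 seed families, which summed to 1625 against 379 to 1039 elsewhere. In that list the miR-133 seed was also highest in sow 13, at 114 RPM. The miR-208 and miR-499 seeds, at 4.75 and 224 RPM, were within the range of the other sows. miR-126, an endothelial miRNA, was at 8197 RPM against 4012 to 7413 in the other sows. The 3 red cell families, miR-451, miR-144 and miR-486, summed to 3964 against 1016 to 2687. Within the smooth muscle and stroma list, miR-199-5p and miR-214 were lowest in this sow, at 9926 and 131 RPM, and miR-27 was highest, at 24377. The remaining families of that list were within the range of the other sows. The 5 leukocyte families summed to 236 against 299 to 576. Of these, miR-155 and miR-223 were lowest in sow 13, at 23.8 and 20.5 RPM, and the others were within range. The 10 epithelial families summed to 36877, within the 27879 to 43720 of the other sows. Of these, miR-375 and miR-183 were highest in sow 13, at 3015 and 758 RPM, and the others were within range. The 12 other smooth muscle and stroma families summed to 152943 in sow 13 and to 143384 to 182957 in the rest, so that this list as a whole was within range. The part of these cell markers, and of the low depth of sow 13, in its miR-143-3p level was not tested.

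The arm ratio compares the dominant with the minor strand of 1 hairpin. For miR-143 the ratio of 3p to 5p reads averaged 294 ± 79.2 in control sows (SD, n = 4), 206.2 ± 46.6 in the 0.05 µg group (n = 3), 255 ± 31.5 in the 10 µg group and 250.3 ± 41.9 in the 1000 µg group (n = 4 each). For miR-145 the ratio of 5p to 3p reads averaged 32.9 ± 4.7 in control sows, 24.4 ± 7.57 in the 0.05 µg group, 36.4 ± 6.38 in the 10 µg group and 29 ± 13.5 in the 1000 µg group. miR-143 thus gave reads of its dominant arm in larger excess, in every group, though these too are ratios of reads and not of molecules. By length class, the miR-145 ratio averaged 28.3 ± 6.36 in A, 36.9 ± 5.12 in B and 24.8 ± 14.7 in C (SD). The miR-143 ratio averaged 244 ± 75.7 in A, 280 ± 27.7 in B and 226 ± 51.5 in C. Both arm ratios had their smallest exact permutation p at 0.05 µg/kg/day, 0.171 for each (adjusted p = 0.887), with log2 differences of -0.50 for miR-143 and -0.46 for miR-145. The lowest ratio of miR-145 among all sows was 14.1 in sow 13, and the highest was 45.8 in sow 10.

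Over the 15 sows the levels of the 4 arms moved together. log2 miR-143-3p and log2 miR-145-5p had a Pearson r of 0.70 (permutation p = 0.00163, adjusted p = 0.00226 over 6 arm pairs) and a Spearman rho of 0.83 (permutation p = 0.00022, adjusted p = 0.00066). Without sows 13 and 15, the 2 farthest from the median of miR-143-3p, r was 0.82 (permutation p = 0.00113, n = 13). Within length classes r was 0.77 in class A (exact permutation p = 0.0486, n = 6) and 0.97 in class B (exact permutation p = 0.00139, n = 6). Both arms share a library and its scaling total in each sow. As deviations from dose group means r was 0.75, and as deviations from length class means 0.73.

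The other 5 arm pairs had r from 0.70 to 0.87, the highest for the minor arms miR-143-5p and miR-145-3p (permutation p = 3e-05, adjusted p = 0.00018). Both minor arms went with length class. miR-145-3p ran from 108 to 181 RPM in class A, 50.4 to 86.7 in B and 74.1 to 259 in C. miR-143-5p averaged 238 ± 50.7 RPM in A, 165 ± 35.6 in B and 346 ± 117 in C (SD). No r within a class is given for these 5 pairs. For miR-143-3p with miR-145-3p, r was 0.70 over 15 sows and 0.42 without sows 13 and 15 (permutation p = 0.15). For miR-143-3p with miR-143-5p, r was 0.80 and, without the same sows, 0.63. Whether r differed with and without these sows was not tested.

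**Figure D4:**
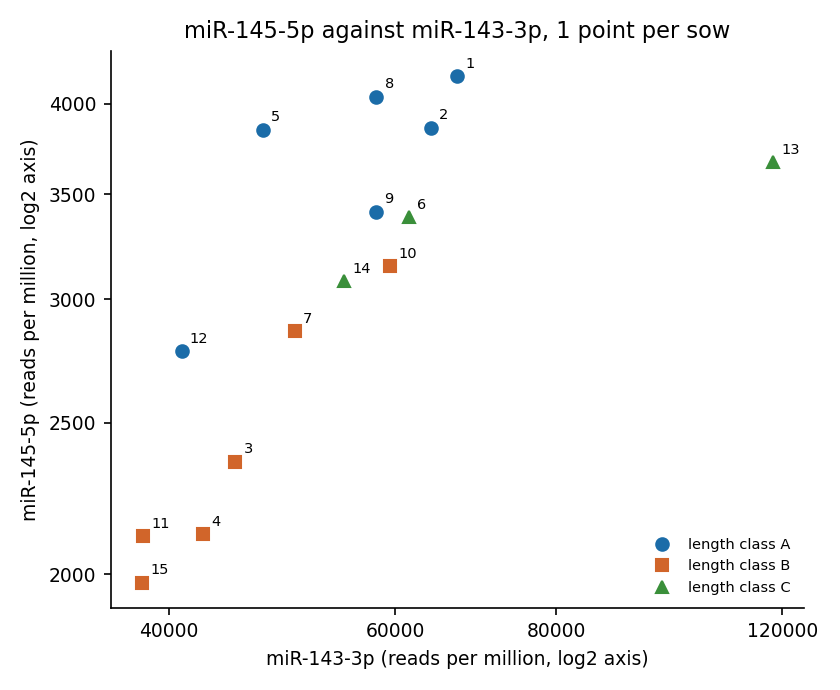
miR-145-5p against miR-143-3p in RPM on log2 axes, 1 point per sow with its number; colour and shape give the length class. Class B sows form a tight line (r = 0.97), class A sows lie above it, and sow 13 lies far to the right at 117919 RPM of miR-143-3p.

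Among 581 read groups of at least 100 RPM, the groups most like miR-143-3p over the 15 sows are shown by their 18-nt starts, seed in capitals, to let them be told from near copies.
miR-1/miR-206 seed: tGGAATGTaaagaagtat
miR-126 seed: tCGTACCGtgagtaataa
miR-99/miR-100 seed: gACCCGTAgatccgatct
no listed seed: tCACAGTGgctaagttct
miR-99/miR-100 seed: aACCCGTAgatccgaact
Their Pearson r with miR-143-3p was 0.85 for the miR-1/miR-206 group, 0.81 for miR-126, 0.79 and 0.72 for the groups with the miR-99/miR-100 seed, and 0.77 for the start with no listed seed. The start with no listed seed matches tTCACAGTggctaagttc, the most abundant tested group with the miR-27 seed, begun 1 base late. Each of the 5 had its highest level in sow 13. Without that sow r was 0.73 for miR-1/miR-206, 0.77 for miR-126, 0.53 and 0.49 for the miR-99/miR-100 groups and 0.76 for the remaining one. The partner miR-145-5p came sixth with 0.70, and had 0.85 without sow 13. For miR-145-5p the miR-126 group (0.78) and the miR-1/miR-206 group (0.78) were again among the 5 most alike, and the partner miR-143-3p ranked 12. Without sow 13 the partner had 0.85, the miR-126 group 0.80 and the miR-1/miR-206 group 0.85. The rank of the partner was not taken again without that sow. The other 3 of the 5 groups most like miR-145-5p had no listed seed and were not matched to a known RNA. Their r was 0.81 for tGTGCAAAtccatgcaaa, 0.81 for tCTGTTCTtatcagttta and 0.77 for cGGGCCTGgttagtactt. Without sow 13 they had 0.88, 0.81 and 0.80 in the same order. All these values are descriptions over sows that share library scaling, 15 unless sow 13 was left out. Before the search, 16 close variants of the members had been left out.

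The other families of the smooth muscle and stroma list gave no called group at any dose (0 of 12, beside 0% of all groups). At 0.05 µg/kg/day 11 of the 12 families had a log2 estimate above 0 and 1 below, with a median of 0.29, beside a median of 0.00 over all groups tested. At 10 µg/kg/day 9 were above and 3 below (median 0.09, all groups -0.05), and at 1000 µg/kg/day 7 were above and 5 below (median 0.09, all groups -0.01). Of all 11121 groups, 5622 were above 0 at 0.05, 4743 at 10 and 5382 at 1000 µg/kg/day. No estimate with length class as a covariate is given for these families. The most abundant families of the list were the miR-10 seed, at 50791 RPM in control, miR-148/miR-152 at 24475, miR-99/miR-100 at 22226 and miR-27 at 19831. Families were recognised by seed alone and may include other RNAs with that seed. The log2 estimate of a family is that of its most abundant tested group. The bases of that group after the seed were not matched to a known miRNA, so it may be another RNA than the one named. For comparison, the epithelial list had 5, 3 and 7 of 10 families above 0 at 0.05, 10 and 1000 µg/kg/day, with 0 called. Its most abundant family, with the seed of miR-200b, miR-200c and miR-429, was at 15508 RPM at 0.05, 14807 at 10 and 18525 at 1000 µg/kg/day, against 15318 in control. The endothelial, leukocyte, red cell, skeletal and cardiac muscle, liver and neuron lists also had 0 families called at each dose. At 1000 µg/kg/day, the group with sow 13, the median log2 difference was 0.75 over the 3 red cell families, 0.41 over the 4 skeletal and cardiac muscle families and 0.15 for miR-126. The muscle median includes the miR-208 seed, at only 3.75 RPM in control. No list was at 0 in a sow, and the liver miRNA miR-122 was the lowest, at 27 to 183 RPM over all sows.

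End variants show where processing leaves the ends of the mature strand. The most abundant reads of the dominant arms are shown to let their 3′ ends be compared, with the seed in capitals.
miR-143-3p, 22 nt: tGAGATGAagcactgtagctct
miR-143-3p, 21 nt: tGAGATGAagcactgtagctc
miR-143-3p, other 22 nt: tGAGATGAagcactgtagctcc
miR-143-3p, 1 more of 22 nt: tGAGATGAagcactgtagctcg
miR-145-5p, 23 nt: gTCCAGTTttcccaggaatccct
miR-145-5p, other 23 nt: gTCCAGTTttcccaggaatcccc
miR-145-5p, 22 nt: gTCCAGTTttcccaggaatccc
miR-143-3p was spread over several ends. Its commonest read held 37.5% of the arm's reads, from 34.03 to 39.7% over sows, the 21-nt read 25.4%, and the other two 22-nt reads 7.06% and 6.56%. miR-145-5p was more uniform, with 61.4% in the 23-nt read, 11.9% in the variant of the same length and 8.16% in the 22-nt read. By length alone, 54.5% of miR-143-3p reads were 22 nt and 27.8% were 21 nt, while 79.2% of miR-145-5p reads were 23 nt. Of the minor arms, miR-145-3p had 84.5% of its reads at 22 nt and miR-143-5p 56% at 21 nt. Whether the alternative last bases are encoded in the hairpin was not tested, since no hairpin sequence was used here.

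**Figure D5:**
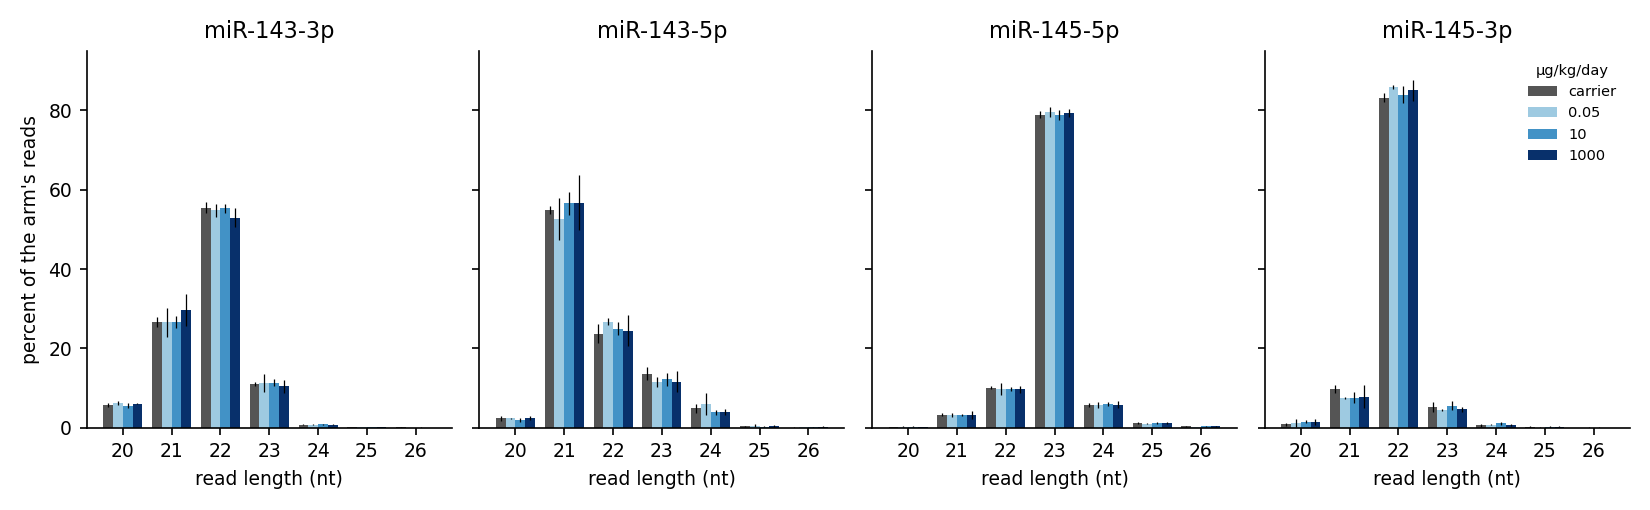
Percent of each arm's reads (vertical axis) by read length in nt (horizontal axis); bars are means over the sows of a dose group and thin lines the SD, from carrier at the left to 1000 µg/kg/day at the right. miR-143-3p is split between 22 nt (54.5% of all its reads) and 21 nt (27.8%), while 79.2% of miR-145-5p reads are 23 nt long, and the groups differ by little.

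The shares of these end variants are given with their tests, which belong to the same 30 and so had little power after adjustment. The commonest miR-143-3p read had 36.9 ± 0.371% of the arm at 0.05, 38.4 ± 1.03% at 10 and 36.4 ± 1.59% at 1000 µg/kg/day, against 38 ± 1.24% in control (SD). The difference of that read from control was -1.58 percentage points at 1000 µg/kg/day and -1.03 points at 0.05 µg/kg/day, each with a two-sided exact permutation p of 0.229 (adjusted p = 0.887). Without sow 13 it was -0.79 points at 1000 µg/kg/day (exact p = 0.457). Reads shorter than it differed by 3.25 points at 1000 µg/kg/day (exact p = 0.257), and by 1.53 points without sow 13 (exact p = 0.514). Shorter reads of miR-143-3p made up 35.7 ± 4.08% at 1000 µg/kg/day against 32.5 ± 1.7% in control, and 34 ± 2.7% without sow 13, which had 40.9%. Shorter reads of miR-143-3p also went with length class, at 30.5 ± 1.15% in A, 34.2 ± 1.2% in B and 37.5 ± 3% in C (SD, n = 6, 6 and 3). For miR-145-5p the commonest read held 62 ± 1.52% at 1000 µg/kg/day against 60.9 ± 1.26% in control (exact permutation p = 0.343, adjusted p = 0.887).

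Shifted starts matter because they move the seed by 1 base. For miR-143-3p 1.39% of the reads began 1 base late and 0.306% began 1 base early, and the most abundant reads are shown with the bases of the usual seed in capitals.
miR-143-3p, 1 base late: GAGATGAagcactgtagctct
miR-143-3p, 1 base early: ctGAGATGAagcactgtagctc
Of the reads with 1 base more, 94% began with C. For miR-143-5p the shares were larger, 2.29% late and 3.34% early, and 98.9% of the early reads began with A. Shifted starts of miR-143-3p together made up 1.67 ± 0.151% at 0.05, 1.7 ± 0.111% at 10 and 1.6 ± 0.0761% at 1000 µg/kg/day, against 1.75 ± 0.278% in control (SD). The exact permutation p was 0.686 at 0.05, 0.743 at 10 and 0.4 at 1000 µg/kg/day, each with an adjusted p of 0.887. Reads that differ from the 20-nt start at 1 base were not counted as members. They numbered 350791 for miR-143-3p, 6.87% of matching and 1-base-off reads together, and 34% of them differed at position 20, counted from the 5′ end. For miR-145-5p they were 3.35%, and the commonest position held 9.55% of them.

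The 2 extractions of sow 7 give the error of RNA preparation and library making for each arm. The second had 50458 and the first 49544 RPM of miR-143-3p, a difference of 0.03 on the log2 scale (second minus first). The differences were -0.05 for miR-145-5p, -0.09 for miR-145-3p, 0.17 for miR-143-5p and 0.08 for the ratio of the partners. Each difference was smaller than the SD between the sows of the same dose group. A single pair cannot show how technical error compares with the variation between sows.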

How the data were processed

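The authors deposited, for each of 16 small RNA libraries (endometrium, TRIzol RNA, NEBNext small RNA kit, per the labels' protocols), every distinct read of 17 to 49 nt with its raw read count. FastQC is the tool, and GRCm38, UMD3.1, GRCh37.p5 and Sscrofa10.2 are the genomes, that appear per the submitters' processing notes, without a role. The aligner is not given in the sources used here.

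No miRNA table was used. Each arm's start was the most abundant 20-nt start with the arm's known 7-nt seed, and reads were counted as set out at the head of the results. Other 18 to 26 nt reads were grouped by their first 18 nt (groups of at least 30 reads). Level is RPM, reads per 1000000 reads of 18 to 26 nt. This replaced the planned table of miRNA arms. The test was edgeR 4.0.16 in R 4.3.3 (filterByExpr, robust quasi-likelihood, 18 to 26 nt reads as library size) over 15 sows, tested on simulated counts, with DESeq2 1.42.0 as an alternative. The biological coefficient of variation was 0.357. Single values were compared by exact permutation over 70 or 35 splits (scipy 1.17.1), and correlations with 100000 resamples or, for 6 sows, all orders. Duplexes were folded with ViennaRNA 2.7.2. Replicates are separate sows. The arms, the marker lists and the length classes were chosen with earlier results of these data known. Named read groups were the 5 with the highest Pearson r with each dominant arm among those averaging at least 100 RPM, and the most abundant families of a list. The fuller set of arm pairs and the search of longer reads were added after the data were seen. Alternatives covered scaling, filter, counting rule, tool, length class, sow 7 and each sow left out.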

Additional observations from a re-analysis of the deposited data

Results flagged for a closer look

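Within the group at 10 µg/kg/day, sow 11 had 38184 RPM of miR-143-3p, while the other 3 sows had 57936 to 59377, a gap that is large for 4 samples by Dixon's criterion. In control, sow 2 had 0.326% of miR-143-3p reads starting 1 base early, and the nearest other sow had 0.299%. At 1000 µg/kg/day the commonest miR-143-3p read held 34.03% of the arm in sow 13, and the nearest other sow had 36.9%. In the same group sow 12 had 18.3% of its miR-143-3p reads at 22 nt with another last base than the commonest read, and the nearest sow had 16.05%. Of 51 sets of values examined, each of 1 measure in the 4 sows of a group, these 4 had such a gap, and chance alone gives one in about 1 of 20 sets.

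Reads of 27 to 49 nt, which no comparison used, held 213 reads that begin as miR-145-5p and run on into miR-143-3p. These are 10.6% of the 2015 reads of that length with the miR-145-5p start. The most abundant, of 43 nt with 85 reads, is shown because it joins both partners without a base between them, with the part of miR-143-3p in capitals.
joined read: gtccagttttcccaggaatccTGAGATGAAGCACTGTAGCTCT
It has 21 bases of miR-145-5p and 22 of miR-143-3p, and 188 of the 213 reads had exactly that many bases of miR-145-5p. In the opposite order there were 16 among 9767 longer reads with the miR-143-3p start. Of the 10 most abundant other read groups, tTCAAGTAatccaggata followed the miR-145-5p start most often, in 77 reads. Such reads came from 13 of 15 sows, with a median of 9 per sow. Sow 13 had 91 of them and the other 14 sows 122 together. Class A sows had 8 to 24, class B sows, which have few long reads, 0 to 7, and class C sows 11 to 91. The source of these reads was not tested.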

How the results depend on the processing

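No arm passed the adjusted threshold under any alternative tried. Of the values recomputed under alternatives, 916 kept their direction or side of the threshold, 61 reversed sign and 3 moved; the reversed ones were values that had not passed a test, and the cause of each was not tested unless fewer sows entered. The count of called groups became 1 instead of 0 at 1000 µg/kg/day when only the dose and control sows were fitted, and 0 to 1 at 10 µg/kg/day and over the doses together when a sow was left out (without sow 9).

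Reversed values at 10 µg/kg/day for miR-143-3p were 0.072 with TMM factors, 0.11 scaled by all deposited reads and 0.081 with DESeq2. With length class as a covariate, values at 1000 µg/kg/day were -0.28 for miR-143-3p, -0.17 for miR-143-5p and -0.067 for miR-145-3p, and slopes over dose rank -0.043 for miR-143-3p, -0.038 for miR-143-5p and -0.076 for miR-145-3p. The miR-145-5p slope was 0.00362 scaled by all deposited reads. Shorter miR-143-3p reads at 0.05 µg/kg/day differed by -0.052 points with the first extraction of sow 7.

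Leaving out each sow in turn gave log2 ranges as follows. At 0.05 µg/kg/day they were -0.17 to 0.068 for miR-143-3p, 0.16 to 0.76 for miR-143-5p, -0.041 to 0.27 for miR-145-5p and 0.43 to 0.91 for miR-145-3p. At 10 they were -0.14 to 0.097 for miR-143-3p, -0.022 to 0.43 for miR-143-5p, -0.12 to 0.19 for miR-145-5p and -0.31 to 0.17 for miR-145-3p. At 1000 they were -0.29 to 0.38 for miR-143-3p, -0.077 to 0.67 for miR-143-5p, -0.27 to 0.048 for miR-145-5p and -0.20 to 0.70 for miR-145-3p. Slopes were -0.079 to 0.10 for miR-143-3p, -0.043 to 0.15 for miR-143-5p, -0.090 to 0.0010 for miR-145-5p and -0.13 to 0.12 for miR-145-3p. The log2 ratio of the partners ran from -0.28 to -0.0026 at 0.05, -0.12 to 0.0074 at 10 and -0.058 to 0.32 at 1000.

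For end variants the ranges are in percentage points. Shifted starts of miR-143-3p ran from -0.17 to 0.026 at 0.05 and -0.15 to 0.048 at 10. Its commonest read ran from -0.021 to 0.99 at 10, its shorter reads from -1.37 to 2.71 at 0.05 and -0.89 to 0.66 at 10, and its longer reads from -1.11 to 1.24 at 0.05 and -0.13 to 0.73 at 10. For miR-145-5p the commonest read ran from -1.49 to 0.048 at 0.05, and shorter reads from -1.11 to 0.83 at 0.05, -0.43 to 0.19 at 10 and -1.34 to 0.022 at 1000. Its longer reads ran from -0.69 to 0.13 at 0.05, -0.016 to 0.63 at 10 and -0.41 to 0.50 at 1000.

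No paired analysis was possible because every sow has its own number and the groups share none. Scaling by reads assigned to miRNA arms, and added bases at the ends, were not run, as both need sequences not used here. Depth limits the minor arms most, with as few as 257 reads of miR-145-3p in a sow.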
